A study of Mus musculus with 8 samples.

Results

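The 10 genes described here are Fos, Fosb, Fosl2, Jun, Junb, Jund, Egr1, Ier2, Nr4a1 and Nr4a3, the immediate early and Nr4a genes of mouse brown adipose tissue. They were taken by symbol from a deposited table of 54532 genes, and each symbol matched 1 gene. RNA of the tissue was sequenced in 4 wild-type samples (WT) and 4 samples of the genotype OGTBKO, read here as a knockout of Ogt in brown adipocytes, since the labels do not spell the name out. OGT is the enzyme that attaches O-GlcNAc to intracellular proteins. Animals of both groups lived at 23 °C on standard chow, received an inducing agent that the labels spell gomaxifen after 8 weeks, and gave their tissue 2 months later. The labels name no strain, Cre driver or deleted exon, and give neither the hour of collection nor the interval from death to dissection. The samples carry numbers but are not said to be different animals, so that the p-values given here refer to the scatter among these samples, which may be technical. The title of the series concerns signals from adipocytes to the vessels of brown fat. The comparison asks how these rapidly induced genes differ between the genotypes.

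Immediate early genes are transcribed within minutes of a stimulus, without new protein synthesis, by factors such as SRF and CREB that are already present in the cell. Proteins of the Fos and Jun families pair through leucine zippers to form the AP-1 transcription factor. Egr1 encodes a zinc finger factor and Ier2 a nuclear protein of the early response. The Nr4a genes encode orphan nuclear receptors that act without a known ligand and bind a response element named NBRE. In brown fat, sympathetic nerves release noradrenaline, and the cAMP that follows from adrenergic receptors induces Nr4a genes.

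Promoter sequence is shown for the 2 Nr4a genes and for 2 AP-1 genes, because CREB, the factor through which cAMP induces immediate early genes, binds the cAMP response element, whose core is TGACG. RefSeq windows of GRCm38.p6 were found for 8 of the 10 members; Egr1 and Ier2 are named only. The stretches run 5′ to 3′ up to the RefSeq start, or to the point where a GENCODE exon begins, on chromosomes 4 (chr4:48045055-48045152, plus strand), 15 (chr15:101266596-101266845, plus strand), 12 (chr12:85473640-85473889, plus strand) and 8 (chr8:84978749-84978998, minus strand). Capitals mark the core, TGACG, or its reverse complement, CGTCA, and in Fos also TATAAA.
Nr4a3: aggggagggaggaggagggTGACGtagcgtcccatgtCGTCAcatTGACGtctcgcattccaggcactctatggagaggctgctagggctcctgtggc
Nr4a1: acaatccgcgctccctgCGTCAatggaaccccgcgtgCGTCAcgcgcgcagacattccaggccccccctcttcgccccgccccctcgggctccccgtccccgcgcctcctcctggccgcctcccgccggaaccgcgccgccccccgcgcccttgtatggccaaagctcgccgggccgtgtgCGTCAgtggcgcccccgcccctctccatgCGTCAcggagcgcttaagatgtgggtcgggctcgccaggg
Fos: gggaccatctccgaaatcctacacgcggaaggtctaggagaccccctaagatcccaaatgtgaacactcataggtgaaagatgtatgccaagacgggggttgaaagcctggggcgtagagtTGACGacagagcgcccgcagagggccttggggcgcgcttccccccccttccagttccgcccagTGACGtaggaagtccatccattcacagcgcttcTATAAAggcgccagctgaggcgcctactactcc
Junb: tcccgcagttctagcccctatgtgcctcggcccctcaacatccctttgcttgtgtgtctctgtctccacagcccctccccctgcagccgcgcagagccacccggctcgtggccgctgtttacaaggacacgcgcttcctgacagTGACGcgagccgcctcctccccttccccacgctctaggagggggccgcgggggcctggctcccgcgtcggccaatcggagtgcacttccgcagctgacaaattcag

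Searched on both strands over the 250 bases before the start, the core was found in 5 of the 8 windows, against 17.8% of all 32851 promoter windows of that length. Nr4a1 and Nr4a3 held 4 copies each, a number that 0.137% of all windows reached or passed. For Nr4a3 3 of them lie in the stretch shown, and 152 bases of its window were left off as exon. The Nr4a1 window ends at position 101266845, inside the gene, which starts at 101254269 in the deposited annotation. The Fosl2 window begins inside a GENCODE exon. The Jund window ends at position 70697738, well before the gene start of 70698949 in the deposited annotation. For Fosl2 and Jund the counts of 0 thus do not cover the bases just before the annotated gene start. Fos held 2 copies and Fosb and Junb 1 each. The complete palindrome TGACGTCA was in 0 of the 8 windows (1.55% of all), and so were the AP-1 site TGANTCA (6.75%), the NBRE AAAGGTCA (1.34%) and the CArG box bound by SRF (1.47%). TATAAA was found in Fos only (12.4% of all windows). TGACGTCA holds the core on each strand, so the counts of these motifs overlap. These matches describe letters in a window and show nothing about binding.

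The libraries held between 13393962 and 15897920 reads in genes. Ogt was lower in every OGTBKO library, at 33.1, 24.7, 23.9 and 22.5 FPKM in WT 1 to WT 4 and 10.7, 14.5, 12.8 and 11.8 FPKM in OGTBKO 1 to OGTBKO 4 (exact two-sided permutation p = 0.0286, the smallest that 4 against 4 allows). FPKM are fragments per kilobase of gene, scaled for depth by the authors. Defining genes of brown adipocytes were abundant in all 8 libraries, with the summed level of 13 markers, Ucp1, Cidea and Adipoq among them, between 4222 and 6072 FPKM in WT and between 4649 and 5437 FPKM in OGTBKO tissue. Markers of skeletal muscle set 2 libraries apart, with summed levels of 563 FPKM in WT 1 and 1564 FPKM in OGTBKO 1 against 20.2 to 59.4 FPKM in the other 6 libraries. Of these 10 muscle markers 0 passed the test between the groups (limma adjusted p under 0.05, and 0 also at an unadjusted p under 0.05), and Ckm and Pvalb were each listed at 0 in 4 libraries, 2 of each group. The 10 macrophage markers summed to between 192 and 380 FPKM in WT and between 264 and 585 FPKM in OGTBKO libraries, and the 6 neutrophil markers to between 3.95 and 40.2 and between 3.16 and 7.17 FPKM. Over all genes tested 15.6% were called in limma. Of 13 brown adipocyte markers, Cox7a1 and Lipe were called higher and Ucp1 and Plin5 lower. Of 7 white adipocyte markers tested, Lep and Sncg were called higher. Only Cdh5 of 10 endothelial markers was called (higher, list median log2 -0.06). Only Kcnj8 of 8 pericyte and smooth muscle markers tested was called (higher, list median 0.13). Only Cd163 of 10 macrophage markers was called (log2 -1.06, limma adjusted p = 0.0413), with a list median of 0.17. Only S100a8 of 4 neutrophil markers tested was called (log2 -2.43, limma adjusted p = 0.0372). Of 8 fibroblast markers 0 were called (0 at an unadjusted p under 0.05), and T and B cell markers were too low to be tested. White adipocyte markers did not overlap between the groups in their sum (73.5 to 148 against 180 to 226 FPKM). Taken singly, Lep did not overlap (1.77 to 13.0 against 24.9 to 45.4 FPKM), whereas every other marker of that list did. Of all genes tested 22.5% did not overlap. The part of these cells in the members' values was not tested. Tissue was sequenced whole, so fewer cells of a type and less RNA per cell cannot be told apart.

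Of the 10 genes, Nr4a3 was called lower in OGTBKO tissue, Junb and Jund were called higher, and 6 did not pass the test. With each library's GC and length trend removed, Nr4a3 alone kept its call (limma adjusted p = 0.0240). Junb (0.0701) and Jund (0.846) lost theirs. Fosb stayed below the filter of a mean of 0.5 FPKM and was not tested. A gene was called at a limma adjusted p under 0.05 (Benjamini-Hochberg over 13171 genes), a limit that 15.6% of all genes tested passed, 8.11% higher and 7.46% lower. The calls thus came to 3 of 9 members tested, 2 higher and 1 lower, and nothing is read from so small a number against that share. The median log2 change of the 9 members was 0.51, and that of all genes tested was 0.00 to 2 decimals (-0.0021). The members' median was 0.30 without OGTBKO 2 and 0.23 with each library's GC and length trend removed. The groups did not overlap for the same 3 genes, Nr4a3, Junb and Jund, where 22.5% of all genes tested did not overlap. Over all genes 1068 were higher and 982 lower, and with the library total as denominator 981 were higher and 249 lower.

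**Figure D1:**
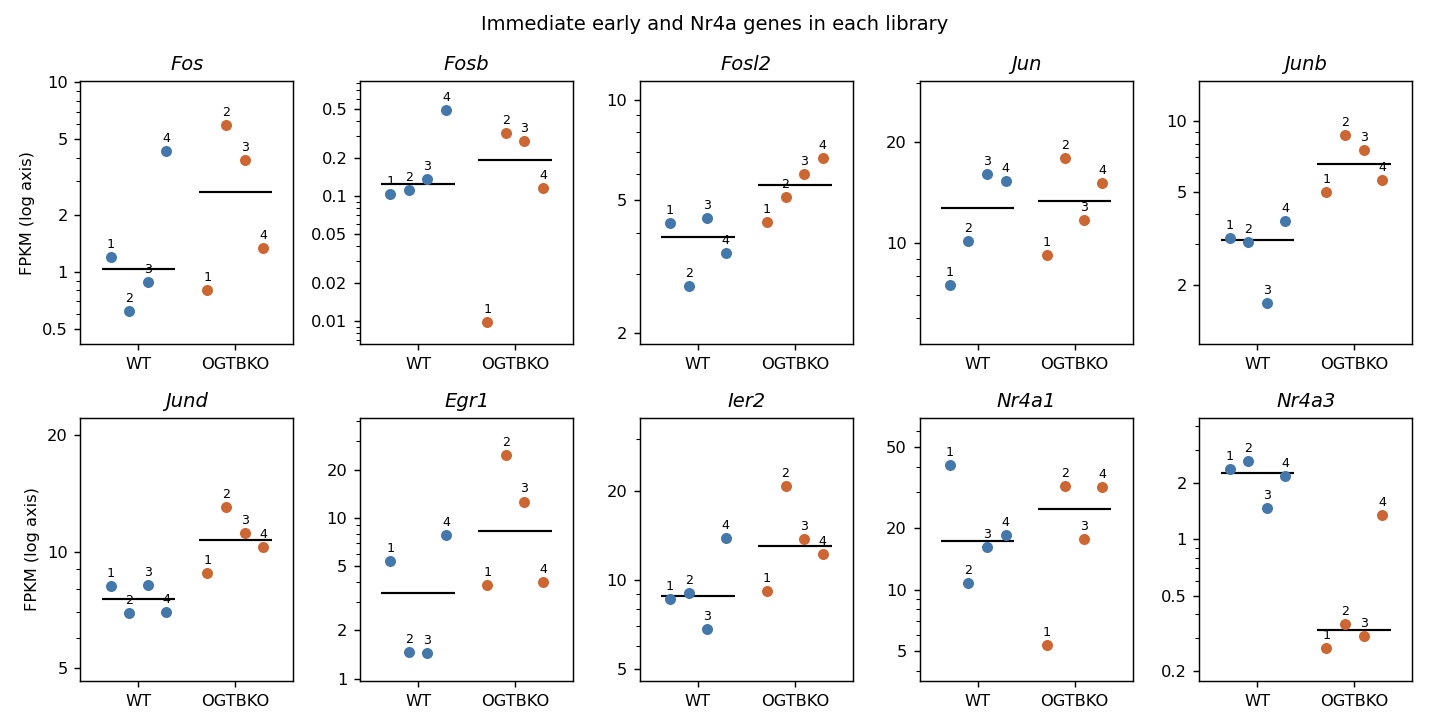
FPKM of each of the 10 genes in each library (points, numbered by replicate; logarithmic vertical axes that differ between panels), WT in blue and OGTBKO in orange, with the median of each group as a black line. Nr4a3 lies lower and Junb and Jund lie higher in all 4 OGTBKO libraries than in any WT library, while the groups overlap for the other 7 genes.

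Nr4a3 (ENSMUSG00000028341, chromosome 4, 48045153 to 48086447, plus strand, mm10), also called NOR1, encodes a nuclear receptor that adrenergic stimulation induces in fat. It measured 2.36, 2.61, 1.47 and 2.17 FPKM in WT 1 to WT 4 and 0.264, 0.353, 0.307 and 1.36 FPKM in OGTBKO 1 to OGTBKO 4. OGTBKO 1, OGTBKO 2 and OGTBKO 3 lay close together, and OGTBKO 4 came just under the lowest WT library, WT 3. Mean levels of 2.15 ± 0.492 and 0.570 ± 0.525 FPKM (SD over the 4 libraries of each group) lay 3.78-fold apart. On the log2(FPKM + 0.5) scale, which understates changes of low genes, Nr4a3 changed by -1.40 ± 0.29 (SE; 95% interval -2.05 to -0.74; limma adjusted p = 0.0168). Voom on back-calculated reads put the change at -2.31. Between 26 and 224 reads per library stood behind these values. With the library total as denominator WT 3 measured 1.15 and OGTBKO 4 1.30 FPKM, so the groups overlapped, although the gene was still called (adjusted p = 0.0285). The call ended without WT 2 (adjusted p = 0.0534), without OGTBKO 3 (0.0558), and without both libraries numbered 1 (0.0560), the 2 libraries high in muscle genes.

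Nr4a1 (ENSMUSG00000023034, chromosome 15, 101254269 to 101274795, plus strand), encoding the receptor also called NUR77, was the most abundant member. Its levels from WT 1 to WT 4 were 41.0, 10.8, 16.1 and 18.5 FPKM, and from OGTBKO 1 to OGTBKO 4 they were 5.35, 32.1, 17.7 and 32.0 FPKM. WT 1 was the highest and OGTBKO 1 the lowest of the 8, and the groups overlapped through most of their range. Mean levels were 21.6 ± 13.3 and 21.8 ± 12.9 FPKM (SD over the 4 libraries of each group). The log2 change was -0.10, with a 95% interval of -1.39 to 1.19 (limma adjusted p = 0.928), and its sign turned with the library total as denominator (0.01) and without both libraries numbered 1 (0.81). The interval spans more than a doubling in either direction. Whether Nr4a3 and Nr4a1 differed in their change was tested on the log2 level of Nr4a3 minus that of Nr4a1 in each library, a test added after the data were seen. It averaged -2.91 (SD 0.82) over the 4 WT and -4.20 (SD 0.97) over the 4 OGTBKO libraries, with an exact permutation p of 0.0857 (two-sided), and the groups overlapped. The 2 receptors were therefore not shown to differ in response.

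Junb (ENSMUSG00000052837, chromosome 8, 84974484 to 84978718, minus strand) encodes a Jun protein that pairs with Fos proteins. It measured 3.17, 3.07, 1.68 and 3.75 FPKM in WT 1 to WT 4 and 5.0, 8.69, 7.52 and 5.62 FPKM in OGTBKO 1 to OGTBKO 4. Every OGTBKO library was above the highest WT library, and WT 3 was the lowest of all. Mean levels were 2.92 ± 0.875 and 6.71 ± 1.7 FPKM (SD over the 4 libraries of each group). The log2 change was 1.09 ± 0.23 (SE; 95% interval 0.57 to 1.61; limma adjusted p = 0.0178). Junb, at 62.6% GC, was no longer called once each library's GC and length trend was removed (log2 0.78, adjusted p = 0.0701). Without OGTBKO 3 the adjusted p was 0.0587. The 3′ end of Junb overlaps Prdx2 on the opposite strand, a peroxiredoxin gene at 39.5 ± 3.48 and 44.4 ± 4.37 FPKM that did not pass the test (log2 0.16, adjusted p = 0.338). Whether strand was used in counting is not given in the sources used here.

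Jund (ENSMUSG00000071076, chromosome 8, 70698949 to 70700616, plus strand) encodes the Jun protein that resting cells express most steadily. Its levels were 8.17, 6.95, 8.21 and 6.97 FPKM in WT and 8.80, 13.1, 11.2 and 10.3 FPKM in OGTBKO libraries. The groups did not overlap, but OGTBKO 1 was within 1 FPKM of the 2 highest WT libraries. The log2 change was 0.48 ± 0.13 (SE; 95% interval 0.19 to 0.77; limma adjusted p = 0.0373). Jund had the highest GC content of the 10 genes, 67.1%, and its change went to 0.06 (adjusted p = 0.846) with the GC and length trend removed. Its call ended in 5 of the 8 fits that left out a single library, those without WT 2, WT 4, OGTBKO 2, OGTBKO 3 or OGTBKO 4, with adjusted p values up to 0.102. With the replicate number as a block, the adjusted p was 0.0943, and with no filter on low values it was 0.0682. An antisense model over the gene, Gm11175, was listed at 0 in all 8 libraries.

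Jun (ENSMUSG00000052684, chromosome 4, 95049034 to 95052222, minus strand), the founding member of its family, measured 7.51, 10.2, 16.1 and 15.3 FPKM in WT and 9.24, 17.9, 11.7 and 15.1 FPKM in OGTBKO libraries. The ranges nearly coincided. Its log2 change was 0.15 (95% interval -0.45 to 0.76; limma adjusted p = 0.737), and it was -0.05 without WT 1. Jun shares part of its locus with Junos on the opposite strand, which stood at 0.0918 to 0.438 FPKM in WT and 0.302 to 0.594 FPKM in OGTBKO libraries.

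**Figure D2:**
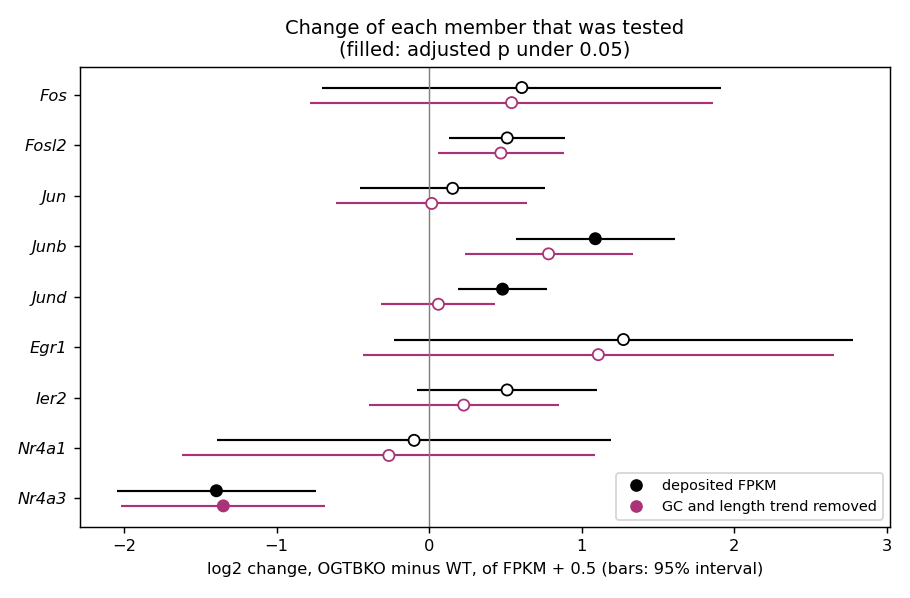
Log2 change of FPKM + 0.5 (OGTBKO minus WT, horizontal axis, with 95% intervals) for the 9 genes tested, from the deposited values (black) and with each library's GC and length trend removed (purple); filled points have an adjusted p under 0.05. Nr4a3 is filled in both, at -1.40 and -1.35, whereas Junb moves from 1.09 to 0.78 and Jund from 0.48 to 0.06 and lose the call.

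The Fos family was low and varied widely. Fos (ENSMUSG00000021250, chromosome 12, 85473890 to 85477273, plus strand) measured 1.2, 0.624, 0.884 and 4.32 FPKM in WT and 0.803, 5.97, 3.90 and 1.34 FPKM in OGTBKO libraries. WT 4, OGTBKO 2 and OGTBKO 3 stood high and the other 5 libraries low, so the split ran across the groups. The log2 change was 0.61 (95% interval -0.70 to 1.91; limma adjusted p = 0.508), from between 21 and 226 reads per library. It ranged from 0.22 without OGTBKO 2 to 1.06 without WT 4 over the fits that left out 1 library, and was called in 0 of them. Fosb (ENSMUSG00000003545, chromosome 7, 19302696 to 19310051, minus strand), its close relative, shared that split into 3 high and 5 low libraries at the edge of detection. It measured 0.104, 0.112, 0.136 and 0.490 FPKM in WT and 0.00976, 0.318, 0.276 and 0.115 FPKM in OGTBKO libraries, from 1 to 50 reads. With no filter on low values its log2 change was -0.06 (95% interval -0.53 to 0.42; limma adjusted p = 0.899). Its mean of 0.195 FPKM lay below the 0.5 added before the logarithm, which compresses its change. A 2-fold difference of Fosb was therefore not excluded by this interval.

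Fosl2 (ENSMUSG00000029135, chromosome 5, 32135801 to 32157842, plus strand), which encodes the Fos relative FRA-2, behaved more evenly. It measured 4.28, 2.77, 4.42 and 3.48 FPKM in WT and 4.30, 5.13, 5.98 and 6.72 FPKM in OGTBKO libraries. Only OGTBKO 1 fell within the WT range. The log2 change was 0.51 ± 0.17 (SE; 95% interval 0.13 to 0.89; limma adjusted p = 0.0693), the member closest to the threshold on the outer side, with Jund (0.0373) closest on the inner. Fosl2 passed with voom on back-calculated reads (0.0457), with array weights (0.0137), with the library total as denominator (0.0498), without OGTBKO 1 (0.0485) and without both libraries numbered 1 (0.0432).

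Egr1 (ENSMUSG00000038418, chromosome 18, 34859823 to 34864984, plus strand) encodes a zinc finger factor of growth and stress responses. It measured 5.37, 1.46, 1.45 and 7.83 FPKM in WT and 3.80, 24.7, 12.7 and 3.99 FPKM in OGTBKO libraries. OGTBKO 2 and OGTBKO 3 exceeded all WT libraries, whereas OGTBKO 1 and OGTBKO 4 lay inside the WT range. Its log2 change was 1.27 ± 0.67 (SE; 95% interval -0.23 to 2.78; limma adjusted p = 0.219), and it was 0.77 without OGTBKO 2 (adjusted p = 0.440). Ier2 (ENSMUSG00000053560, chromosome 8, 84661331 to 84662852, minus strand), a nuclear protein gene of the early response, measured 8.63, 9.04, 6.83 and 13.9 FPKM in WT and 9.20, 20.9, 13.7 and 12.3 FPKM in OGTBKO libraries. WT 4 and OGTBKO 3 were nearly equal, and the log2 change was 0.51 (95% interval -0.08 to 1.1; limma adjusted p = 0.210). Without OGTBKO 2 the change was 0.30, and removing the GC and length trend gave 0.23. The intervals of Fos, Egr1, Nr4a1 and Ier2 reached past 1 on the log2 scale in at least 1 direction, so a 2-fold difference of these genes was not excluded.

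By mean level over the 8 libraries, per kilobase, the order ran from Nr4a1 (21.7 FPKM) through Jun (12.9), Ier2 (11.8), Jund (9.21), Egr1 (7.66), Junb (4.81), Fosl2 (4.64), Fos (2.38) and Nr4a3 (1.36) to Fosb (0.195). The ranges over libraries overlapped for every pair of neighbours in this order, so the order is that of the means and not of levels shown to differ. Fosb lay below the whole range of each other member except Nr4a3.

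Libraries of the same genotype also differed from one another across the members. Within the OGTBKO group, OGTBKO 1 was the lowest library for all 10 members and OGTBKO 2 was the highest for 8, all except Fosl2 and Nr4a3. OGTBKO 1 also had the highest muscle marker sum of the 8 libraries and the lowest macrophage marker sum of its group (264 FPKM). WT 1, the other library high in muscle markers, was highest in its group for 1 member, at rank 2 for 6 and lowest for 2. OGTBKO 2 had the highest macrophage sum (585 FPKM) and the highest fibroblast sum (475 FPKM) of the 8. Lyz2 was the largest part of these macrophage sums, at 148 FPKM in OGTBKO 1 and 420.5 FPKM in OGTBKO 2. The other macrophage markers did not share that order. Adgre1 and Csf1r were highest in OGTBKO 2, Cd68 and Itgam in OGTBKO 3, and C1qa in OGTBKO 1. Mrc1, Cd163, C1qb and C1qc were highest in WT 1. The part of these cells in the library pattern was not tested. In the WT group, WT 4 was the highest for 5 members (Fos, Fosb, Junb, Egr1 and Ier2) and the lowest for 0. WT 2 and WT 3 were each the lowest for 4. Nr4a1 was the only member for which WT 1 led, with a log2 level 1.08 above its group mean. Among the other members, its deviations over the 8 libraries went most closely with those of Jund (r = 0.73) and Fosl2 (r = 0.70). Among all 13170 genes compared with Nr4a1, Jund ranked only 600 and Fosl2 785. Nr4a3 and Fos parted in OGTBKO 4, where Nr4a3 was 0.90 above its group mean and Fos was 0.64 below.

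**Figure D3:**
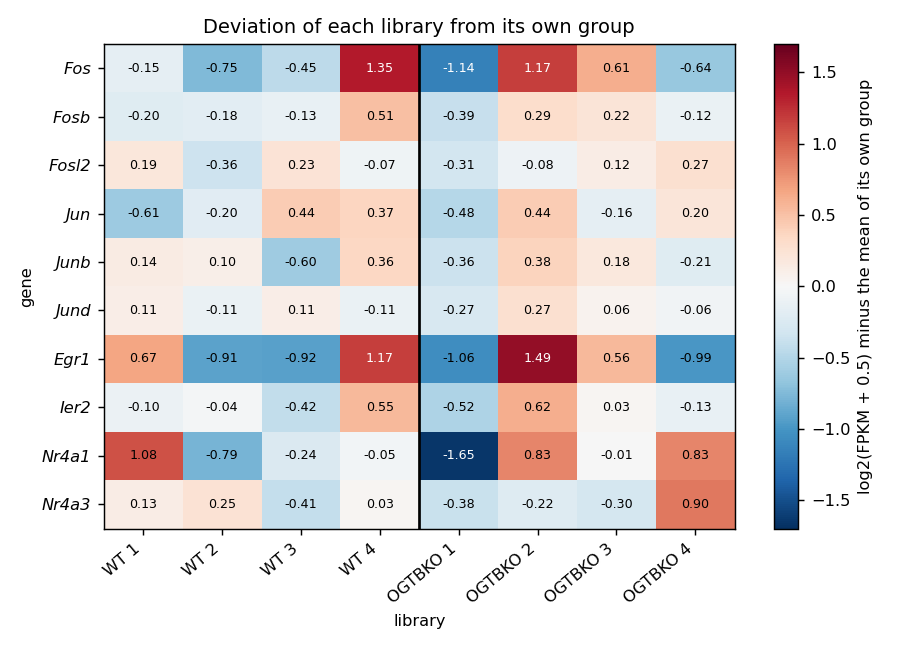
Deviation of log2(FPKM + 0.5) in each library from the mean of its own group, for the 10 genes (rows) and 8 libraries (columns; the line separates WT from OGTBKO), red above and blue below the mean. OGTBKO 1 is blue for all 10 genes, and WT 4, OGTBKO 2 and OGTBKO 3 are red for Fos, Fosb, Junb, Egr1 and Ier2.

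The spread within groups separated the members as well. The pooled within-group SD on the log2 scale was 1.17 for Egr1, 1.01 for Fos and 1.0 for Nr4a1, larger than in 98.6%, 97.8% and 97.7% of the 13171 genes, whose median SD was 0.22. Nr4a3 (0.47), Jun (0.45), Ier2 (0.44) and Junb (0.38) lay between. Fosl2 (0.26) and Jund (0.18) were near the typical gene. A gene with an SD near 1 needs a large difference of means to pass with 4 libraries in each group.

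Genes whose deviations within groups most resembled the mean of the 10 members were picked from 5038 protein-coding candidates by Pearson r over the 8 libraries, as a description. The libraries are shared by all genes, and the highest values of so many are large by selection. They were Ramp2, a partner protein of the calcitonin receptor-like receptor (r = 0.995), Lrrc57 (0.924), the endocytosis gene Necap1 (0.918), the matrix gene Cyr61 (0.917), the Src family kinase gene Lyn (0.915) and the membrane protein gene Myadm (0.911). Among them only Cyr61, itself an immediate early gene, was called between the groups (log2 1.24, limma adjusted p = 0.0390). It measured 3.18 to 6.57 FPKM in WT and 5.16 to 17.7 FPKM in OGTBKO libraries, which overlapped through OGTBKO 1.

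Other immediate early genes were counted against the 15.6% of all genes tested that were called. Among 20 measured transcription factors of this kind 1 was higher, 0 were lower and 19 did not pass (5.0% called), with a median log2 change of 0.04. The gene that rose was Cebpb, a leucine zipper factor of adipocyte differentiation, from 66.5 ± 19.7 to 113 ± 9.66 FPKM (SD, n = 4 each; log2 0.82, limma adjusted p = 0.0345), a call that ended with the GC and length trend removed (log2 0.39). Next came Klf9 (log2 -0.56, adjusted p = 0.0686), Hes1 (log2 0.46, 0.0955) and the cAMP-responsive Crem (log2 -0.46, 0.0995). Nr4a2, the remaining Nr4a gene, singled out after its values were seen, measured 2.65 to 8.00 FPKM in WT and 2.33 to 6.83 FPKM in OGTBKO libraries (log2 -0.15, adjusted p = 0.815).

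Among 31 measured immediate early effectors, which encode signalling and structural proteins, 5 were higher, 2 lower and 24 did not pass (22.6% called), with a median log2 change of 0.22. Arc, an activity-regulated gene best known from neurons, rose from 0.333 ± 0.142 to 1.80 ± 0.330 FPKM (SD, n = 4 each; log2 1.47 ± 0.18, limma adjusted p = 0.00344). The kinase gene Pim1 rose from 16.6 ± 6.26 to 39.8 ± 5.52 FPKM (log2 1.31 ± 0.26, adjusted p = 0.0145) and Ier5 by a log2 of 0.61 (adjusted p = 0.00844). Homer1, a scaffold gene, fell from 3.37 ± 0.286 to 2.0 ± 0.294 FPKM (log2 -0.64, adjusted p = 0.0103). Its call was lost once the trend was removed (log2 -0.31). The other 3 calls, named for completeness after their values were seen, were Cyr61 (above), the growth arrest gene Gadd45a (log2 0.86, adjusted p = 0.0186) and the clock gene Per1 (log2 -0.83, adjusted p = 0.0480).

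Partners and upstream regulators of the members were counted next. Of 8 measured bZIP partners of AP-1, 1 rose and 3 fell (50% called, against 15.6% of all genes tested), and the median was -0.32. They were Mafg (log2 -0.52, limma adjusted p = 0.0157), Atf2 (log2 -0.54, 0.0166), Atf7 (log2 -0.38, 0.0377) and, higher, the AP-1 repressor Jdp2 (log2 0.65, 0.0462). Of 24 genes of the adrenergic, cAMP and CREB pathway, 0 rose and 4 fell, and the median was -0.25. The share called, 16.7%, was near the 15.6% of all genes tested. The adenylyl cyclase gene Adcy6 fell from 26 ± 4.21 to 14.4 ± 2.97 FPKM (adjusted p = 0.0138). Pde3b and Pde4d, which encode enzymes that degrade cAMP, fell by 0.65 and 0.67 on the log2 scale (adjusted p = 0.0260 and 0.0447), and Creb1 fell by 0.41 (adjusted p = 0.0363). With the GC and length trend removed, 6 of these calls ended, at a log2 of -0.31 for Atf2, -0.29 for Atf7, 0.47 for Jdp2, -0.49 for Pde3b, -0.63 for Pde4d and -0.14 for Creb1.

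Of 23 genes of the SRF and MAP kinase pathway 1 was higher, 1 lower and 21 did not pass (8.70% called), with a median of -0.05. Mapk3, encoding the kinase ERK1, rose from 19.99 ± 2.29 to 32.5 ± 1.51 FPKM (log2 0.69 ± 0.10, limma adjusted p = 0.00644). Rps6ka5, a kinase gene of the pathway, fell (log2 -0.68, adjusted p = 0.0358, not called at -0.49 after removal of the trend), and Rps6ka1 stood at a log2 of 0.60 (adjusted p = 0.0554). Genes for the decay of AU-rich mRNAs, a class to which Fos mRNA belongs, included 5 lower and 0 higher of 17 (29.4% called). Their median was -0.14. Tob2 (log2 -0.75, adjusted p = 0.0186), which recruits the deadenylase, was among them, with Pan3 (log2 -0.42, 0.0203) and the CCR4-NOT subunits Cnot7 (log2 -0.60, 0.0229), Cnot6 (log2 -0.42, 0.0328) and Cnot6l (log2 -0.62, 0.0414). The calls of Cnot7 and Cnot6 ended with the trend removed, at a log2 of -0.32 and -0.18. The retinoid X receptors, with which NUR77 can pair, had 0 of 3 called in limma (0 at an unadjusted p under 0.05), with Rxrg at a log2 of 0.24, Rxra at -0.14 and Rxrb at -0.08.

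**Figure D4:**
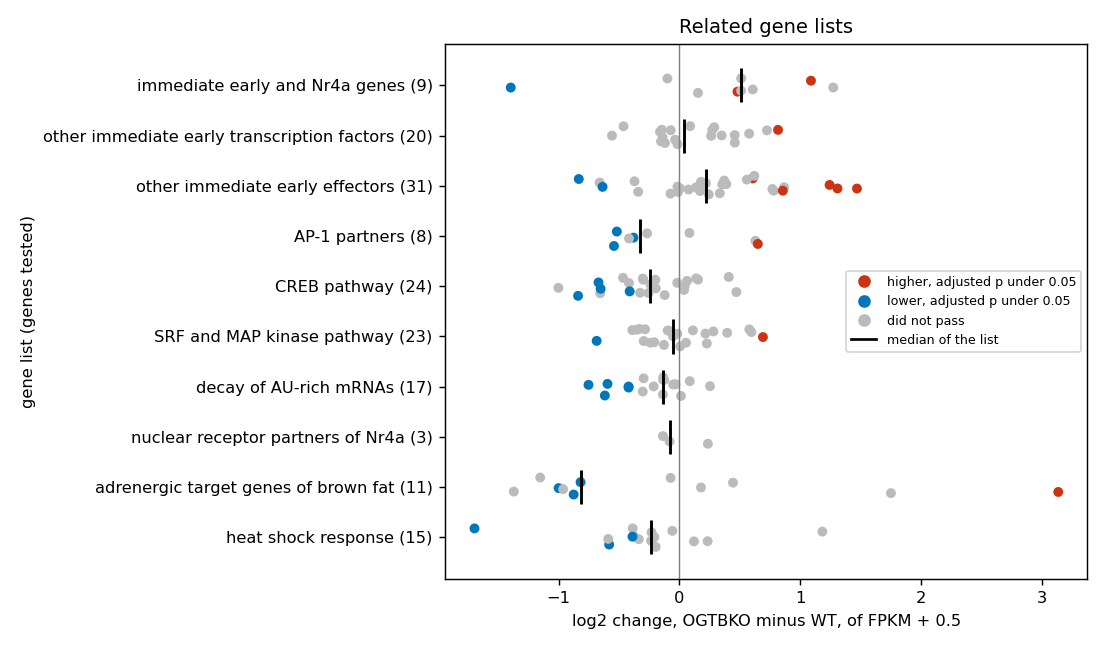
Log2 change (OGTBKO minus WT) of the members and of 9 related lists, 1 point per gene tested, red if higher and blue if lower at an adjusted p under 0.05, with the median of each list as a black line. The members' median is 0.51 in these deposited values (0.23 with the GC and length trend removed), that of the adrenergic target genes -0.82, and the other lists have medians between -0.32 and 0.22.

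Known adrenergic target genes of brown fat had a median log2 change of -0.82, with 3 of 11 lower and 1 higher (36.4% called). Ppargc1a (log2 -0.87, limma adjusted p = 0.00628), Ucp1 (log2 -1.0, 0.0113) and the kinase gene Pdk4 (log2 -0.82, 0.0119) fell. Bmp8b rose by a log2 of 3.14 (adjusted p = 0.000227). A link of these genes with Nr4a3 was not tested. Heat shock genes, which answer to cell stress, had 3 of 15 lower and 0 higher (20% called) with a median of -0.23. Hsph1 fell by 1.7 (limma adjusted p = 0.00236), Hspa8 by 0.58 (0.0206) and Hsp90ab1 by 0.39 (0.0362) on the log2 scale. Cryab did not pass (log2 1.18, adjusted p = 0.0590). In all, 30 of the 151 measured genes of these 9 lists were called, where 15.6% of all genes tested were. Of the 26 list genes named under the rule and called, 5 were called in every alternative tried, Arc, Pim1, Bmp8b, Ppargc1a and Hsph1, and 21 lost the call in at least 1.

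**Figure D5:**
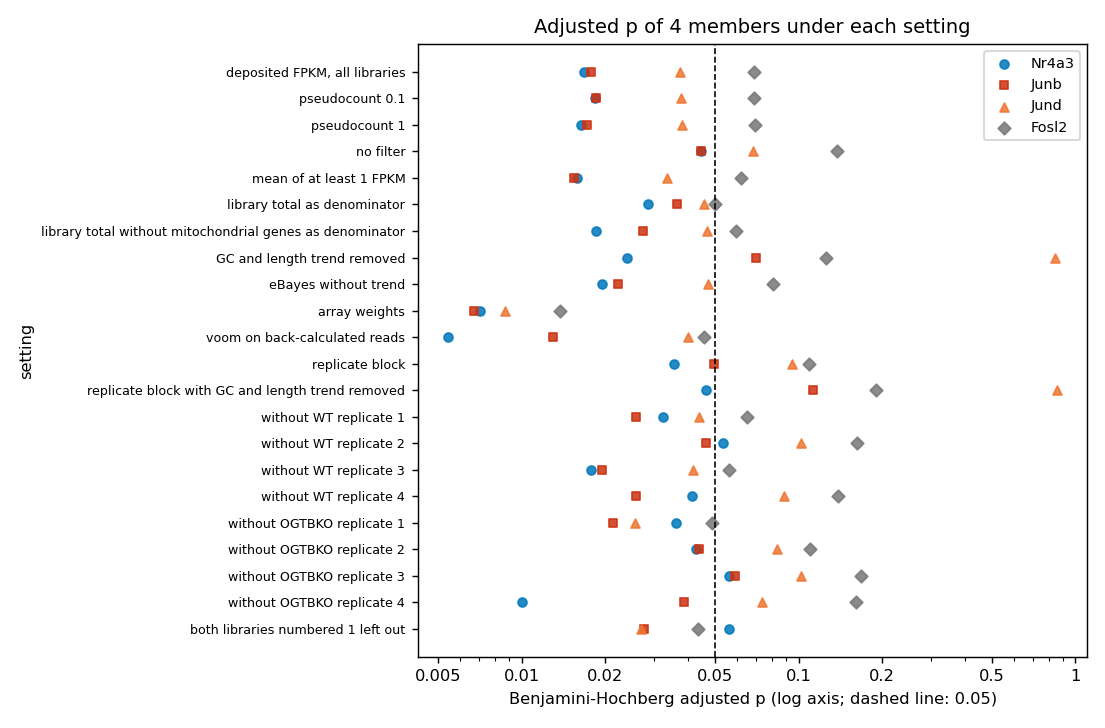
Benjamini-Hochberg adjusted p (horizontal logarithmic axis, dashed line at 0.05) of Nr4a3, Junb, Jund and Fosl2 in the limma fit of the deposited values and under 21 alternatives (vertical axis). Nr4a3 crosses the line in 3 alternatives, Junb in 3 and Jund in 9, while Fosl2 falls under it in 5.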

How the data were processed

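Brown adipose tissue RNA was profiled in 4 WT and 4 OGTBKO samples, with 1 batch value for all in the labels. HISAT2 2.0.5, featureCounts 1.5.0-p3 and mm10 are named, per the submitters' processing notes. The authors deposited FPKM per gene; whether strand was used is not given in the sources used here. Multiplied by gene length, 100% of values came out as whole multiples of 1 read (tolerance 0.001), so reads were back-calculated. The deposited FPKM denominators were 0.790 to 1.13 times the library totals. Of the identifiers 99.9% were in GENCODE M21.

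Values were tested as log2(FPKM + 0.5) for 13171 genes with a mean of at least 0.5 FPKM by limma 3.58.1 in R 4.3.3 (eBayes with trend, two-sided, no covariates, Benjamini-Hochberg). The steps were tested on simulated data. Single values were compared by exact permutation (scipy 1.17.1). GC content came from the longest GENCODE transcript. Named were the members, Ogt, up to 4 genes with the smallest p per list (1 is not reported here), and 6 genes most like the members. The members and lists were chosen with earlier results of these data known.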

Additional observations from a re-analysis of the deposited data

Results flagged for a closer look

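In 3 of 20 groups of 4 libraries, each of the 10 genes taken in each genotype, a single library lay farther from the rest than Dixon's criterion allows. For independent normal values chance flags about 1 group in 20. These values were FPKM without logarithms, and Fos and Fosb deviated together (r = 0.96), so the number of flags cannot be set against that rate. WT 4 measured 4.32 FPKM for Fos, where the next WT library had 1.2 FPKM. The same library measured 0.490 FPKM for Fosb, against 0.136 FPKM in the next. OGTBKO 4 measured 1.36 FPKM for Nr4a3, against 0.353 FPKM in the next OGTBKO library. Without OGTBKO 4 the log2 change of Nr4a3 was -1.7 (limma adjusted p = 0.0100), and that of Fos, 0.61 with all libraries, was 1.06 without WT 4 (adjusted p = 0.217).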

How the results depend on the processing

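Over 21 alternatives Nr4a3 kept a log2 change between -2.31 and -1.04, Junb between 0.78 and 1.26, and Jund between 0.06 and 0.61; 18, 18 and 12 of them called these genes. Fos, Jun, Egr1, Ier2 and Nr4a1 were called in 0. The count of members called, 3, went to 1 with the GC and length trend removed, to 1 with the replicate block and that trend removed, and ran from 0 to 4 with single libraries left out (limma; 0 without OGTBKO 3, where 4 had an unadjusted p under 0.05, and 1 without WT 2). All genes called, 2050, went to 1229 with no filter, 1230 with the library total as denominator and 3516 with array weights, and to between 692 and 2122 with single libraries left out (784 without WT 2, 1195 without WT 4, and 1175, 692 and 945 without OGTBKO 2, 3 and 4). List genes called, 30, went to 18 with no filter, 15 with the library total, 17 with the trend removed and 54 with array weights, and to between 12 and 32 with single libraries left out (16 without WT 2, 17 without OGTBKO 2, 12 without OGTBKO 3).

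The replicate block gave 888 genes (603 with the trend removed), 14 list genes (8 with the trend removed), and ended the call of Jund among the members. Same-numbered libraries did not deviate together in every pair (r = 0.22, 0.17, 0.01 and -0.01 for numbers 1 to 4). The values for numbers 1 and 2 were the highest of all pairs of a WT and an OGTBKO library. Whether a shared number marks a shared step of the work cannot be told from these values. Nr4a1 turned sign with the library total (0.012), array weights (0.36) and both libraries numbered 1 left out (0.81), and ran from -0.38 to 0.45 with single libraries left out; Jun ran from -0.050 to 0.31 and Rxrb from -0.22 to 0.024, with Rxrb at 0.028 with the library total. The causes were not tested. The mean Ogt difference ran from -14.8 to -11.2 FPKM with single libraries left out, where 3 against 4 cannot pass (smallest exact p 0.0571). Leaving out both libraries numbered 1, and the Nr4a3 to Nr4a1 comparison, were chosen after seeing the data. Depth limits Fosb (1 to 50 reads) most.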

Other observations

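Dusp1 and Zfp36, immediate early genes outside the members, were singled out after their values were seen. Dusp1, a phosphatase that switches off MAP kinases, measured 11.7, 10.9, 11.8 and 34 FPKM in WT 1 to WT 4 and 11.4, 36.8, 30.5 and 23.2 FPKM in OGTBKO 1 to OGTBKO 4 (log2 0.62, limma adjusted p = 0.354). As for Fos, WT 4, OGTBKO 2 and OGTBKO 3 were the 3 highest of the 8. Zfp36, whose protein speeds the decay of AU-rich mRNAs, measured 2.64 to 5.46 FPKM in WT and 5.12 to 9.52 FPKM in OGTBKO libraries (log2 0.77, adjusted p = 0.0550).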
